A study of Mus musculus with 32 samples.

Results

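Mitosis and DNA replication draw on a set of genes that is transcribed in dividing cells and is nearly silent in resting ones. The 42 genes described here were a fixed list of such genes, mapped by symbol to GENCODE gene identifiers on mm10, out of 25058 genes present in the files of all assays. Of these, 26 act in mitosis: 6 in mitotic entry, 5 in the anaphase-promoting complex (APC/C) and the spindle checkpoint, 4 as Aurora kinases and their partners, 6 as mitotic kinesins and midzone proteins, 3 at the centromere and 2 on the chromosome itself. The other 16 act at the G1/S transition and in DNA replication: 3 cyclin E and E2F genes, 6 subunits of the MCM helicase, 3 licensing and firing factors, and 4 genes for PCNA and nucleotide supply.

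The genes were followed in kidney, liver, lung and spleen of wild-type C57BL/6J female mice, 6 or 7 months old, that were given 10 mg of cisplatin per kg of body weight, or the same volume of saline as controls, by intraperitoneal injection at ZT1. The methods place the killing of the mice 4 h later, whereas a sample label gives 2 h. RNA-seq covered 2 control and 2 cisplatin libraries per organ, 16 in all, while Damage-seq and XR-seq covered 2 cisplatin libraries per organ, 8 libraries each, with no untreated counterpart. Damage-seq marks cisplatin adducts at GG dinucleotides in the genome, and XR-seq sequences the short fragments that nucleotide excision repair cuts out around them. The methods describe biological replicates, the labels do not name the animal of each library, and p-values measure the spread between these libraries.

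Cyclin B with the kinase Cdk1 drives a cell into mitosis, and Cdc20 with the APC/C ends it by destroying the cyclins. The MCM helicase is loaded on origins by Cdc6 and Cdt1 in G1 and unwinds DNA in S phase, where PCNA tethers the polymerases. E2F factors switch on the replication genes, and the MuvB-based complexes with B-Myb and Foxm1 switch on the mitotic genes through CCAAT boxes and the cell cycle homology region (CHR). After DNA damage, p53 and its target p21, encoded by Cdkn1a, stop the cycle, and p53 also acts on Pcna directly. In adult kidney, liver and lung most cells rest, whereas spleen holds dividing lymphoid and erythroid cells.

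Total reads on genes ran from 15619474 to 162270280 per library in RNA-seq, from 10658675 to 59779770 in XR-seq and from 1571167 to 6441367 in Damage-seq, in which the median member had between 9.5 and 72.5 reads. The control pairs of lung and of spleen RNA-seq differed at close to sampling noise (a chi-square index of 2.75 and 2.98, against 39.3 to 349 in the other RNA-seq pairs), so each pair was summed and counted as 1 sample. The submitters note a correction to the lung and spleen RNA-seq labels, and the corrected ones were used. The p53 target Cdkn1a stood at 4.24 and 8.46 RPKM in the control and 121 and 128 RPKM in the cisplatin libraries of kidney (log2 fold change 4.33 ± 0.394 SE, adjusted p = 0.00718). In lung it stood at 42.2 and 40.3 RPKM in the control and 141 and 165 RPKM in the cisplatin libraries (log2 fold change 1.91 ± 0.198 SE, adjusted p = 0.019). It was also higher in both cisplatin libraries than in both control libraries of liver and spleen, with a log2 fold change of 3.06 in liver, which did not pass the test (adjusted p = 0.254), nor did spleen (adjusted p = 0.368). Mdm2, the ligase that degrades p53, had a log2 fold change of 1.87 in kidney (adjusted p = 0.0246), with 0.85, 0.51 and -0.14 for liver, lung and spleen, and those of Ccng1, which encodes cyclin G1, were 0.61, 0.58, 0.17 and 0.03.

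In lung, 8 of the 26 mitosis members were lower after cisplatin, and 0 of the 16 replication and G1/S members passed the test, where 1.96% of the 18210 genes tested in lung were lower and 0.132% were higher. The test was glmTreat of edgeR, which asks whether a change exceeds 0.4 on the log2 scale, with a Benjamini-Hochberg adjusted p under 0.05 over all genes. In lung and spleen its control arm was 1 sample, the summed pair, so that the spread came from the 2 cisplatin libraries and the control was taken to vary like them. All 26 mitosis members had a log2 fold change below 0 (median -1.56), as did 15 of the 16 replication and G1/S members (median -0.43), against a median of 0.03 over all genes, and the difference between these groups of genes was not tested. In a single fit over all organs, which share 1 estimate of the spread, 0 members passed in lung (0.366% of all genes lower). With cisplatin replicate 1 or 2 left out of that fit, lung kept 1 sample per arm, and no count of members is read from it. The members' median log2 fold change was then -1.33 or -0.967, against 0 or -0.0115 over all genes. DESeq2 with all libraries called 13 members lower (2.06%). Expression is given below as RPKM, reads scaled by the exon length of a gene and by the reads on genes of its library.

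Both chromosome-associated members fell. Top2a, at chr11:98992943-99024189 on the minus strand of mm10, encodes topoisomerase II alpha, which untangles sister chromatids, and stood at 8.27 and 8.62 RPKM in the control and 2.42 and 2.12 RPKM in the cisplatin libraries (log2 fold change -1.91 ± 0.168 SE, adjusted p = 0.0155). Mki67, at chr7:135689784-135716361, encodes Ki-67, the proliferation marker that coats mitotic chromosomes, and stood at 5.98 and 6.28 RPKM in the control and 2.07 and 1.54 RPKM in the cisplatin libraries (log2 fold change -1.79 ± 0.212 SE, adjusted p = 0.0227). For both genes the control libraries lay well above both cisplatin libraries, with no overlap between the groups. Values are given below in the same order, both control libraries against both cisplatin libraries.

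At the centromere, Cenpe and Cenpf fell. Cenpe, at chr3:135212537-135273611, encodes the kinetochore motor CENP-E and stood at 1.79 and 1.82 RPKM in the control and 0.459 and 0.461 RPKM in the cisplatin libraries (log2 fold change -1.98 ± 0.255 SE, adjusted p = 0.0259). Cenpf, at chr1:189640606-189688086, encodes another kinetochore protein and stood at 1.04 and 1.09 against 0.314 and 0.237 RPKM (log2 fold change -1.98 ± 0.281 SE, adjusted p = 0.0324). Cenpa, which encodes the centromeric histone H3 variant, had a log2 fold change of -1.18 and did not pass (adjusted p = 0.14).

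Among the Aurora kinases and their partners, Tpx2 and Birc5 fell. Tpx2, at chr2:152847964-152895321, encodes the activator that brings Aurora A to the spindle and stood at 4.29 and 4.3 RPKM in the control and 1.24 and 0.98 RPKM in the cisplatin libraries (log2 fold change -1.96 ± 0.264 SE, adjusted p = 0.0289). Birc5, at chr11:117849251-117855743, encodes survivin of the chromosomal passenger complex, with 3.22 and 3.34 against 1.08 and 1 RPKM (log2 fold change -1.67 ± 0.27 SE, adjusted p = 0.0491). The kinases themselves did not pass, and Aurka, which encodes Aurora A, stood at 3.74 and 3.82 against 2.06 and 1.73 RPKM (log2 fold change -1.01 ± 0.278 SE, adjusted p = 0.244). Aurkb, the kinase of the passenger complex, had a log2 fold change of -1.82 (adjusted p = 0.0986).

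Of the remaining mitotic groups, 1 mitotic entry gene and 1 APC/C gene fell. Ccna2, at chr3:36564865-36572150, encodes cyclin A2, which acts in S phase and at mitotic entry, shares 11.8% of its length with Exosc9 on the opposite strand, and stood at 4.44 and 4.32 against 1.55 and 1.3 RPKM (log2 fold change -1.62 ± 0.256 SE, adjusted p = 0.0478). Ube2c, at chr2:164769898-164778822, encodes the ubiquitin-conjugating enzyme of the APC/C, shares 18.6% of its length with Tnnc2 on the opposite strand, and stood at 6.84 and 6.27 against 2.12 and 1.82 RPKM (log2 fold change -1.71 ± 0.257 SE, adjusted p = 0.0402). The cyclin B1 gene Ccnb1 had the most negative log2 fold change of all members, at 1.94 and 1.92 against 0.597 and 0.367 RPKM, and missed the threshold (log2 fold change -2.01 ± 0.371 SE, adjusted p = 0.0645). Cdk1 itself stood at 2.73 and 2.69 against 1.08 and 0.891 RPKM (log2 fold change -1.47 ± 0.269 SE, adjusted p = 0.0735). Cdc20, the APC/C activator, stood at 8.44 and 8.32 against 4.02 and 2.87 RPKM (log2 fold change -1.28 ± 0.29 SE, adjusted p = 0.135). In each of these 5 genes both cisplatin libraries lay below both control libraries. The 6 kinesin and midzone genes had log2 fold changes between -1.70 and -1.21 and none passed, Kif11 (adjusted p = 0.066) and Prc1 (0.068) coming nearest. The cyclin B2 gene Ccnb2 was just outside the threshold (adjusted p = 0.0564).

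**Figure D1:**
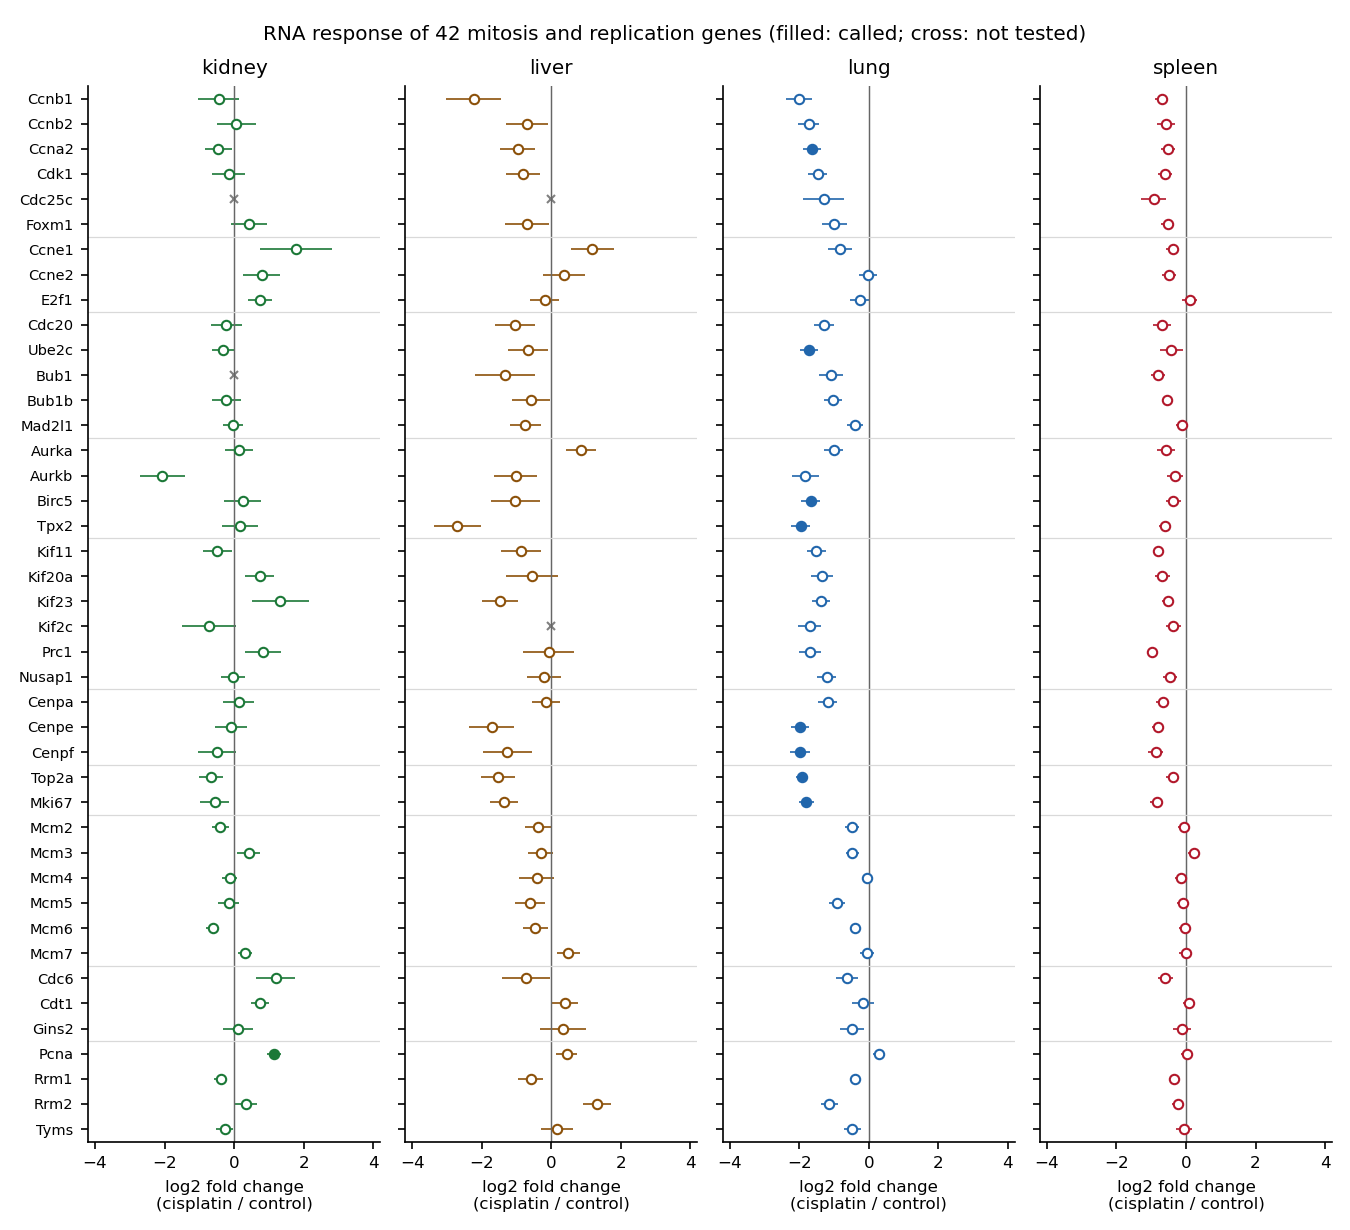
Log2 fold change of RNA, cisplatin over control, for each of the 42 genes (rows, grouped by role) in the 4 organs (panels), with bars of 1 SE; filled points passed the test and crosses mark genes not tested. The 8 filled points in lung all lie below 0 among mitotic genes, and the filled point in kidney is Pcna.

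None of the 16 G1/S and replication genes passed in lung, and the spread of their changes was wide. Rrm2, the small subunit of ribonucleotide reductase, stood at 7.98 and 7.47 against 3.93 and 3.04 RPKM (log2 fold change -1.13 ± 0.255 SE, adjusted p = 0.143). The helicase subunit gene Mcm5 stood at 6.34 and 6.67 against 3.91 and 3.16 RPKM, with a log2 fold change of -0.90. For Mcm2 of the same helicase the values were 4.47 and 4.35 against 3.36 and 2.93 RPKM, with -0.48. Over the 6 MCM genes the median log2 fold change was -0.43. The cyclin E1 gene Ccne1 stood at 1.56 and 1.53 against 0.968 and 0.759 RPKM, and the licensing factor gene Cdc6 at 1.04 and 0.921 against 0.693 and 0.557 RPKM. E2f1, which encodes the transcription factor, stood at 4.16 and 3.92 against 3.9 and 2.81 RPKM, and the cyclin E2 gene Ccne2 at 1.99 and 2.18 against 2.03 and 2.17 RPKM. The groups overlapped in Ccne2 but not in E2f1. Pcna was the exception in direction, at 35.5 and 32.9 RPKM in the control and 43.1 and 39.9 RPKM in the cisplatin libraries (log2 fold change 0.30 ± 0.164 SE, adjusted p = 0.983).

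A plain count of the 42 genes by library gave 36 in lung with both cisplatin libraries below both control libraries, where 33.5% of all genes with a mean of 10 or more reads did so. The reverse order held for 1 member, Pcna, against 34.8% of all genes. These counts treat the near-identical control libraries as separate values, and so carry no test.

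The promoters of members that moved together are shown for the elements known to control them. Promoter sequences were taken from RefSeq on GRCm38.p6, where 33 of the 42 genes had an entry. In the 250 bases before the start, on both strands, the CHR letters TTTGAA were present in 8 of 20 mitosis members (40%), in 1 of 13 replication and G1/S members (7.69%) and in 16.3% of all 27025 promoters. The CCAAT box was present in 16 of 20 mitosis members (80%), in 8 of 13 replication and G1/S members (61.5%) and in 34.5% of all promoters. The letters TTTNNCGC, a common form of the E2F site, were present in 1 of 20 mitosis members (5%), in 4 of 13 replication and G1/S members (30.8%) and in 4.39% of all promoters. A match describes the sequence and does not show a bound site.

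The 150 bases before the RefSeq start are printed below for 4 genes that fell in lung (Top2a, Mki67, Ube2c and Cenpf), for the MCM gene Mcm6, which held E2F matches, and for Pcna, which rose in kidney. Capitals mark matches to the CHR, CCAAT or E2F letters on either strand, so that a match on the opposite strand appears as its reverse complement.
Top2a, chr11:99024190-99024339, minus strand: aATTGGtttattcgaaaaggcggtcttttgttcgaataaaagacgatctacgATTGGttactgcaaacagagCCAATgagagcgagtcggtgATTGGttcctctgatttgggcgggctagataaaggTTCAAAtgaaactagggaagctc
Mki67, chr7:135716380-135716529, minus strand: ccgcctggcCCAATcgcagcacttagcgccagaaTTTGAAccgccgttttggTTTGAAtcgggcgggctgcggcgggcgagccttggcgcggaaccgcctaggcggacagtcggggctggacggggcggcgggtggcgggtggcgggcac
Ube2c, chr2:164769779-164769928, plus strand: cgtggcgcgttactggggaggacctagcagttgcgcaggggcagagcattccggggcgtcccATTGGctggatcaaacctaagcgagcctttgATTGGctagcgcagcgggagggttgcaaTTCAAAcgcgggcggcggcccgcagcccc
Cenpf, chr1:189688087-189688236, minus strand: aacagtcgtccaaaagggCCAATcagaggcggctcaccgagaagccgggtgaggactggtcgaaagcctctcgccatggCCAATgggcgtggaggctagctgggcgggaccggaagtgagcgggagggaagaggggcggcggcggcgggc
Mcm6, chr1:128359706-128359855, minus strand: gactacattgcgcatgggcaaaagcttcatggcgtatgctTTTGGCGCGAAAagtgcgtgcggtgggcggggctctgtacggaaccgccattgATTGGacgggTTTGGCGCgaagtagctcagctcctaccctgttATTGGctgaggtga
Pcna, chr2:132253181-132253330, minus strand: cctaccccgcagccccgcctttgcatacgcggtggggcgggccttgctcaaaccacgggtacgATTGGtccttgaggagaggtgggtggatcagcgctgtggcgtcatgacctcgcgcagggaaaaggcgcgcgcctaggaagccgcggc
Top2a, Mki67 and Ube2c showed both a CHR and CCAAT boxes in these windows, and Cenpf showed CCAAT boxes without the CHR letters. The window of Pcna held 1 CCAAT box, and in Mcm6 a pair of E2F matches on opposite strands overlapped, while no match of 1 kind overlapped another kind in these windows. Of the 8 genes that fell in lung, 6 had a RefSeq entry, of which 3 held the CHR letters, 5 the CCAAT box and 0 the E2F letters in the 250 bases before the start.

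The falls in lung were set beside the lymphoid content of the libraries, because dividing lymphocytes and their precursors carry mitotic RNA. In bulk RNA, fewer cells of a type and less RNA per cell cannot be told apart. The summed RPKM of the 26 mitosis members was 85.8 and 86.4 RPKM in the control and 34.2 and 27.5 RPKM in the cisplatin libraries. The summed level of 12 T cell markers was 111 and 111 RPKM in the control and 34.4 and 28.3 RPKM in the cisplatin libraries, and that of 7 thymocyte markers was 55.5 and 58.9 RPKM in the control and 17.4 and 16 RPKM in the cisplatin libraries. Both lymphoid sums were lower in both cisplatin libraries, as the mitotic sum was.

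Of the T cell list, 8 of 12 genes were called lower (median log2 fold change -1.90), of the B cell list 10 of 12 (-1.92), of the thymocyte list 4 of 7 (-3.41) and of the germinal centre B cell list 2 of 5 (-1.37). The B cell sum, which is mostly the IgM gene Ighm, was 1400 and 1410 RPKM in the control and 1670 and 980 RPKM in the cisplatin libraries. Cd3e, a subunit of the T cell receptor complex, stood at 5.76 and 5.34 RPKM in the control and 1.56 and 1.15 RPKM in the cisplatin libraries. Rag1, the V(D)J recombinase of immature lymphocytes, stood at 6.65 and 7.38 RPKM in the control and 0.208 and 0.648 RPKM in the cisplatin libraries, and Dntt, its template-free polymerase partner, at 6.64 and 7.26 RPKM in the control and 0.228 and 0.683 RPKM in the cisplatin libraries. Every T cell and B cell marker had reads in all 4 lung libraries, and of the thymocyte markers Ptcra, the pre-T cell receptor chain, was at 0 in cisplatin replicate 1. Glycam1, a mucin-like protein of lymph node venules, stood at 72.8 and 74.7 RPKM in the control and 0.164 and 0.0404 RPKM in the cisplatin libraries, and the sum of the 7 high endothelial venule and lymphoid stroma genes was 115 and 119 RPKM in the control and 24.1 and 15.2 RPKM in the cisplatin libraries.

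The ratio of summed mitosis members to summed T cell markers was 0.773 and 0.778 in the control and 0.994 and 0.972 in the cisplatin libraries of lung. The thymocyte sum was mostly Tcf7, at 32.1 and 32.7 RPKM in the control and 12 and 9.62 RPKM in the cisplatin libraries. To that sum the ratio was 1.55 and 1.47 against 1.97 and 1.72. Both of these ratios were higher in the cisplatin libraries. So was that to the high endothelial venule and lymphoid stroma sum, at 0.746 and 0.726 against 1.42 and 1.81. The ratio was lower for the germinal centre B cell sum, at 7.03 and 7.38 against 4.03 and 4.85. It was also lower for the NK cell sum, at 3.8 and 3.71 against 1.32 and 2.31, and for the B cell sum, at 0.0613 and 0.0613 against 0.0205 and 0.0281. Ighm, most of the B cell sum, stood at 1140 and 1150 against 1600 and 931 RPKM. S1pr2, the largest part of the germinal centre sum, stood at 6.11 and 6.06 against 6.76 and 3.73 RPKM. Ratios without these genes were not computed. To the sum of 7 endothelial markers the ratio was 0.106 and 0.109 in the control and 0.0347 and 0.0306 in the cisplatin libraries. The lists of resident lung cells were nearer to control, with 0 of 9 lung epithelium genes called (summed level 114000 and 115000 RPKM in the control and 111000 and 132000 RPKM in the cisplatin libraries) and 0 of 7 endothelium genes (summed level 812 and 793 RPKM in the control and 985 and 900 RPKM in the cisplatin libraries). Lists of other cells had lower sums as well, without a called gene. The erythroid sum was 10800 and 10300 RPKM in the control and 5830 and 4460 RPKM in the cisplatin libraries, the hepatocyte sum 72.2 and 56.3 against 37.6 and 9.25 RPKM, with all 6 genes below 0, and the kidney tubule sum 65.7 and 65.7 against 9.27 and 3.34 RPKM. The median log2 fold change was -0.82 for the erythroid list and -1.01 for the neutrophil precursor list, whose sum was 79.5 and 77.6 against 71.2 and 85.1 RPKM. The part of lymphoid and other cell content in the fall of the mitotic genes was not tested.

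**Figure D2:**
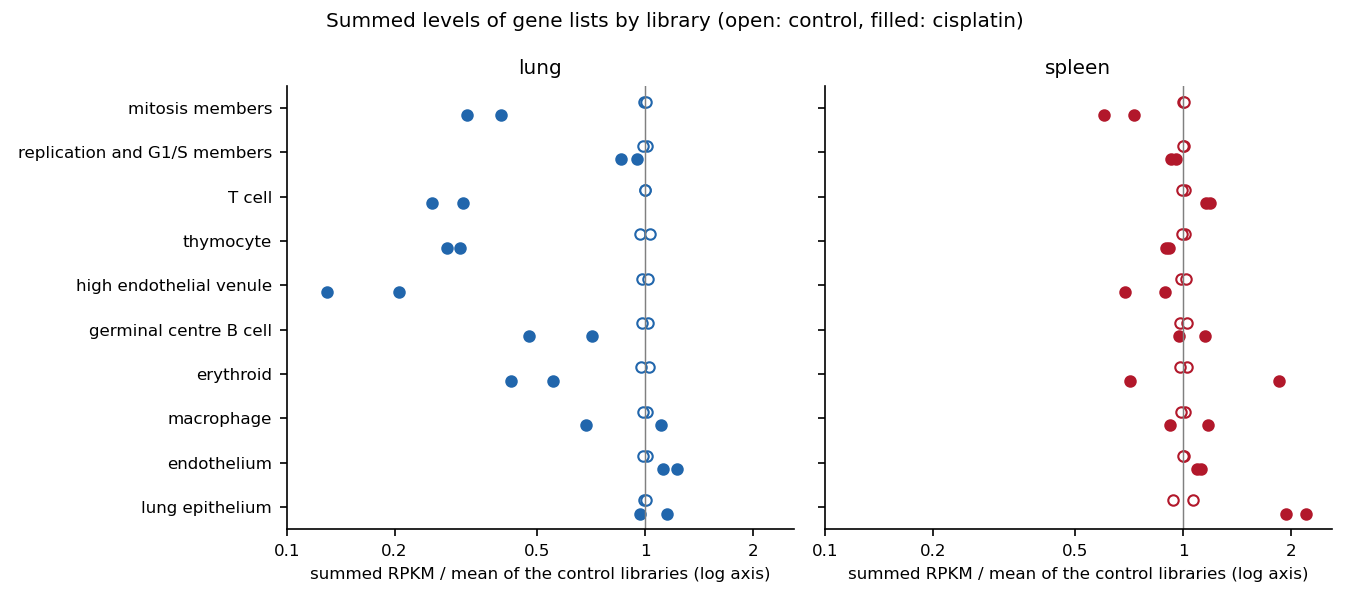
Summed RPKM of the member groups and of marker lists in each lung and spleen library, divided by the mean of the control libraries of that organ (log axis), with open points for control and filled points for cisplatin. In lung the mitosis members lie below 1, as do the T cell, thymocyte, high endothelial venule, germinal centre B cell and erythroid lists, and in spleen the mitosis members lie below 1 while the T cell list lies above it.

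In kidney, Pcna rose and no other member passed. Pcna, at chr2:132249162-132253314 on the minus strand, encodes the sliding clamp of replication, which also serves in DNA repair, has annotated pseudogene copies that may share reads, and stood at 19.5 and 14.4 RPKM in the control and 39.7 and 32 RPKM in the cisplatin libraries (log2 fold change 1.15 ± 0.194 SE, adjusted p = 0.046). Both cisplatin libraries lay above both control libraries. Of the 40 genes tested 1 was higher and 0 were lower, where 2.4% and 2.65% of the 15471 genes tested in kidney were higher and lower. At an unadjusted p under 0.05 there were 2 members, where 19% of all genes stood there, and DESeq2 called 1 member higher and 0 lower. Pcna did not pass when cisplatin replicate 1 (adjusted p = 0.32) or 2 (adjusted p = 0.0831) was left out. Bub1 and Cdc25c did not pass the filter on low counts.

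Most mitotic genes were at a low level in kidney, and their log2 fold changes centred near 0 (median -0.12, 15 of 24 below 0). Mki67 stood at 0.381 and 0.497 against 0.395 and 0.201 RPKM, and Top2a at 0.511 and 0.512 against 0.384 and 0.25 RPKM, with log2 fold changes of -0.55 and -0.66. Ccnb1 stood at 0.172 and 0.116 against 0.121 and 0.0845 RPKM, and Cdk1 at 0.21 and 0.243 against 0.234 and 0.167 RPKM. For Cdc20 the values were 0.748 and 0.934 against 0.823 and 0.602 RPKM, and for Aurka 0.736 and 0.574 against 0.632 and 0.719 RPKM. The groups overlapped in Mki67, Ccnb1, Cdk1, Cdc20 and Aurka, and not in Top2a. Aurkb was furthest from 0 in the downward direction, with a log2 fold change of -2.07 that did not pass (adjusted p = 0.159).

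The G1/S and licensing genes other than Gins2 had log2 fold changes of 0.75 or more in kidney, without passing. Ccne1 stood at 0 and 0.15 against 0.385 and 0.254 RPKM (log2 fold change 1.78 ± 1.03 SE, adjusted p = 0.471), from few reads. Its paralogue Ccne2 stood at 1.02 and 0.348 against 1.3 and 0.912 RPKM, and E2f1 at 0.722 and 1.05 against 1.6 and 1.31 RPKM. Cdc6 stood at 0.139 and 0.118 against 0.404 and 0.179 RPKM, with a log2 fold change of 1.20, and Cdt1, the other loader of the helicase, had one of 0.75. The helicase itself did not share this, with Mcm2 at 2.2 and 2.38 against 1.5 and 1.84 RPKM, Mcm5 at 1.18 and 1.58 against 1.3 and 1.11 RPKM and a median of -0.14 over the 6 MCM genes. Rrm2 stood at 1.61 and 1.38 against 2.19 and 1.49 RPKM. Counted by library, 8 members of 40 with enough reads had both cisplatin libraries above both control libraries (Ccne1, E2f1, Kif20a, Mcm3, Mcm7, Cdc6, Cdt1 and Pcna), where 24.3% of all genes did so, and 10 had them below, where 32.3% did.

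In liver no member passed, and no gene of the 13868 tested did (0% higher and 0% lower by edgeR). DESeq2 called 0 members as well. At an unadjusted p under 0.05 there were 7 members of 40, where 9.28% of all genes stood there. Of the 24 mitosis members tested, 23 had a log2 fold change below 0 (median -0.92), while the 16 replication and G1/S members divided evenly around 0 (median -0.02). Without cisplatin replicate 1, 5 of 41 members were lower and 1 higher, where 9% and 3.87% of all genes were, and in the fit over all organs 2 of 42 were lower, where 2.3% of all genes were. Cdc25c and Kif2c did not pass the filter on low counts.

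Tpx2 had the most negative value, at 0.376 and 0.397 against 0.102 and 0.0243 RPKM (log2 fold change -2.71 ± 0.677 SE, adjusted p = 0.224). Ccnb1 stood at 0.255 and 0.166 against 0.0808 and 0.0135 RPKM, with a log2 fold change of -2.23. Mki67 stood at 0.871 and 0.58 against 0.4 and 0.181 RPKM, and Top2a at 0.707 and 0.396 against 0.28 and 0.111 RPKM, and in both genes the cisplatin libraries lay below the controls. Cdk1 stood at 0.53 and 0.376 against 0.366 and 0.162 RPKM, and Cdc20 at 0.549 and 0.717 against 0.328 and 0.29 RPKM. Aurka went the other way, at 1.02 and 1.15 against 1.78 and 2.06 RPKM (log2 fold change 0.86).

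Rrm2, which supplies deoxynucleotides, had the highest log2 fold change in liver, at 2.4 and 3.88 against 9.63 and 6.51 RPKM, and did not pass (log2 fold change 1.31 ± 0.403 SE, adjusted p = 0.397). Ccne1 stood at 0.193 and 0.139 against 0.576 and 0.214 RPKM, Ccne2 at 0.307 and 0.342 against 0.702 and 0.195 RPKM and E2f1 at 0.852 and 0.771 against 0.724 and 0.668 RPKM. For Pcna the values were 12.1 and 12.6 against 19.5 and 14.3 RPKM. The 6 MCM genes had a median of -0.40, with Mcm2 at 0.815 and 0.593 against 0.686 and 0.409 RPKM and Mcm5 at 1.04 and 0.95 against 0.922 and 0.428 RPKM. Cdc6 stood at 0.107 and 0.0867 against 0.0456 and 0.0653 RPKM. The groups overlapped in Ccne2 and Mcm2, while in E2f1, Mcm5 and Cdc6 both cisplatin libraries lay below both controls. Both cisplatin libraries lay above both controls for 5 members (Ccne1, Aurka, Mcm7, Pcna and Rrm2) of 41, against 20.1% of all genes, and below for 15, against 18.1%.

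In spleen no member passed by edgeR (0.017% of the 17686 genes tested were lower and 0.164% higher) or by DESeq2, and 8 members had an unadjusted p under 0.05 (4.34% of all genes). All 26 mitosis members had a log2 fold change below 0, with a median of -0.59, and 12 of the 16 replication and G1/S members did, with a median of -0.08. Prc1, the midzone bundler, had the most negative value (log2 fold change -0.96 ± 0.168 SE, adjusted p = 0.719). Mki67 stood at 31.8 and 32.2 against 18.5 and 16.5 RPKM (log2 fold change -0.84 ± 0.188 SE, adjusted p = 0.965). Top2a stood at 29.6 and 30.2 against 23.3 and 21.7 RPKM, with a log2 fold change of -0.39.

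The mitotic entry genes Ccnb1 and Cdk1 stood at 7.03 and 7.13 against 4.59 and 3.97 RPKM, and at 8.76 and 8.59 against 6.08 and 5.12 RPKM, respectively. Cdc20 stood at 19.3 and 18.3 against 13.1 and 9.43 RPKM, and Aurka at 9.9 and 9.95 against 7.46 and 5.56 RPKM. In these 4 genes both cisplatin libraries lay below both control libraries. Pcna, the most abundant member per length, stood at 75.5 and 74.3 against 75.2 and 74.6 RPKM, and Mcm2 at 14.4 and 14 against 13.7 and 12.9 RPKM. The groups overlapped in Pcna and not in Mcm2. Mcm5 stood at 26.4 and 25.8 against 25.1 and 22.7 RPKM, and Rrm2 at 33.4 and 33.4 against 29.1 and 26.3 RPKM. E2f1 stood at 5.98 and 5.77 against 6.65 and 5.63 RPKM. Ccne1 stood at 10.3 and 10.8 against 8.41 and 7.54 RPKM, Ccne2 at 6.08 and 6.25 against 4.49 and 4.2 RPKM and Cdc6 at 5.19 and 5.19 against 3.75 and 3.01 RPKM. By library, 35 of 42 members had both cisplatin libraries below both controls (34.3% of all genes) and 2, Mcm3 and Cdt1, above them (29.2%).

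In spleen the T cell markers were not lower alongside the mitotic genes. The summed mitosis members were 299 and 302 RPKM in the control and 219 and 181 RPKM in the cisplatin libraries, whereas the T cell list was 460 and 452 RPKM in the control and 543 and 528 RPKM in the cisplatin libraries, with 0 of 12 genes called. Of the B cell list, 0 of 12 genes were called and 6 were below 0, with a median log2 fold change of -0.04. Its sum, mostly Ighm, was 20600 and 20600 RPKM in the control and 15400 and 12000 RPKM in the cisplatin libraries. The ratio of summed mitosis members to it was 0.0145 and 0.0147 against 0.0142 and 0.0151. To the germinal centre B cell sum the ratio was 16.4 and 15.9 against 10.2 and 10. Of the erythroid list, whose precursors divide in mouse spleen, 0 of 12 genes were called, and the directions were mixed. In 7 genes the log2 fold change was below 0, from -2.25 to -0.91, and in the other 5, Hba-a1, Hba-a2, Hbb-bs and Hbb-bt of haemoglobin and the haem synthesis gene Alas2, it was above 0, from 0.02 to 1.15. The lowest was that of Klf1, the erythroid transcription factor, at 16.6 and 17.7 RPKM in the control and 6.07 and 1.12 RPKM in the cisplatin libraries, and the highest that of Hba-a2, at 413 and 414 against 1320 and 460 RPKM. The summed level, mostly haemoglobin, was 14500 and 13900 RPKM in the control and 26200 and 10100 RPKM in the cisplatin libraries. All 6 pancreas acinar genes were called higher, with a summed level of 7.34 and 6.73 RPKM in the control and 1380 and 1070 RPKM in the cisplatin libraries. The part of lymphoid cells, of erythroid precursors and of pancreatic tissue in the spleen values was not tested.

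**Figure D3:**
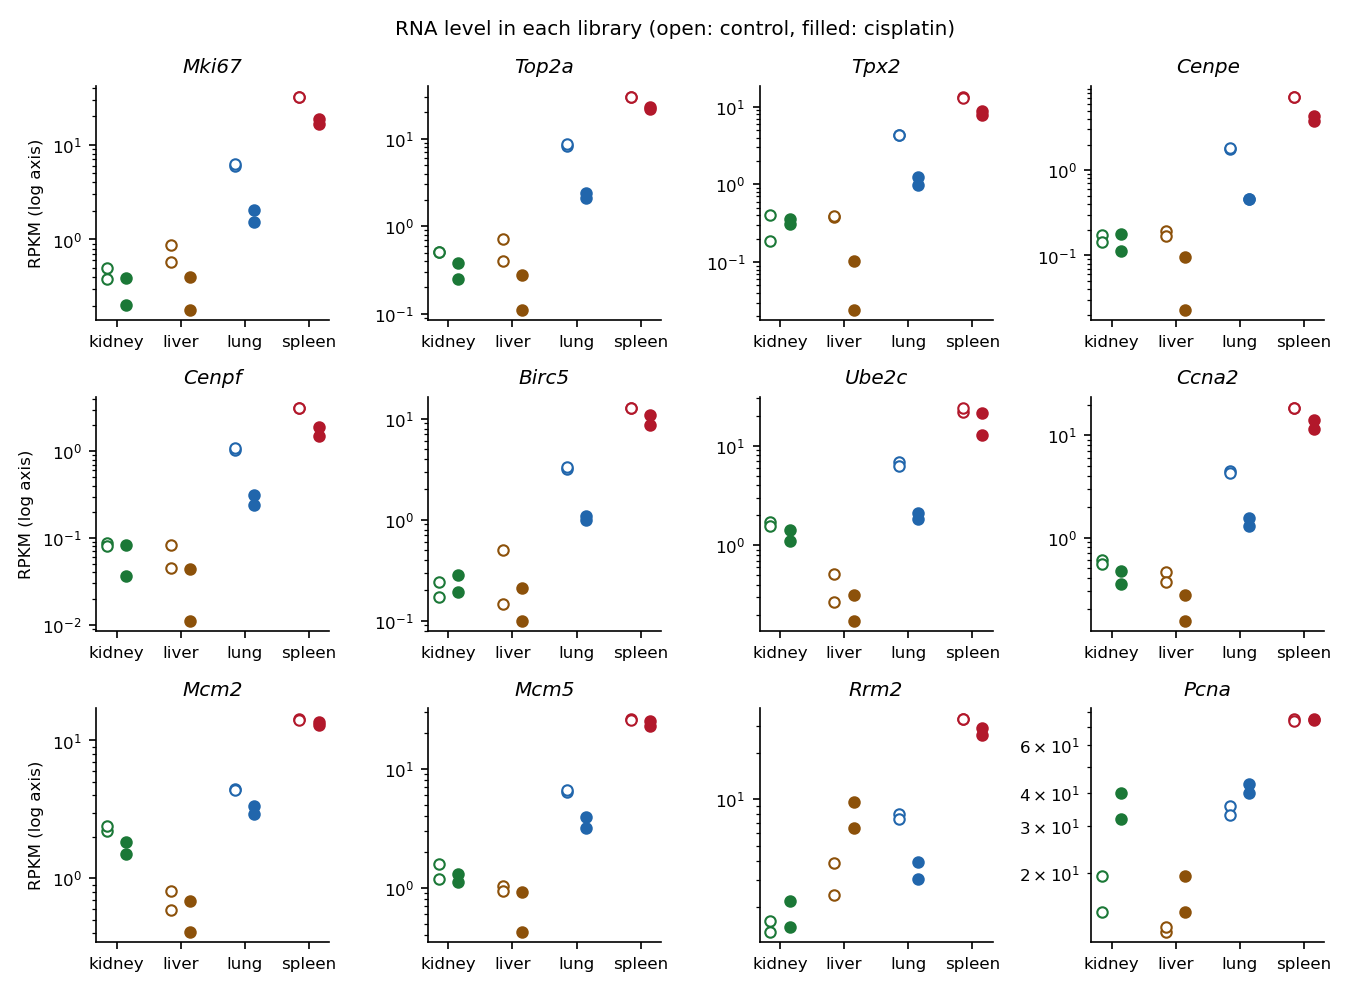
RNA level (RPKM, log axis) of selected members in each library of the 4 organs, with open points for control and filled points for cisplatin. Spleen lies highest for the mitotic genes, lung shows separated groups in Mki67 and Top2a, and kidney shows them in Pcna.

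A difference between organs in the response was tested for each pair of organs with edgeR's quasi-likelihood test in a single fit over the 19100 genes that passed the filter there. No member passed in any of the 6 pairs. Over all genes, 0.0733% passed between kidney and liver, 0.12% between kidney and lung, 0.304% between kidney and spleen, 0% between liver and lung, 0.0366% between liver and spleen and 0.0105% between lung and spleen. At an unadjusted p under 0.05, kidney and lung differed in 20 members (7.37% of all genes), kidney and liver in 6 (7.12%), kidney and spleen in 4 (8.74%), liver and lung in 3 (6.76%), liver and spleen in 4 (6.87%), and lung and spleen in 4 (4.25%). The median difference of the members was largest between kidney and lung, at 1.18 on the log2 scale, against 0.04 over all genes. The fall in lung is therefore not shown to differ from the values of the other organs.

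Further genes of the same pathways were counted from lists. In lung, 4 of 48 other mitosis genes were lower and 0 higher, where 1.96% and 0.132% of all genes were, with 46 below 0 and a median of -1.18. Hmmr, a spindle and hyaluronan-binding protein, had a log2 fold change of -2.21 (adjusted p = 0.0281), and Plk1, the Polo-like mitotic kinase, one of -1.91 (0.0484). Of 36 other replication genes, 0 passed in lung (median -0.36, 29 below 0). In kidney, liver and spleen, 0 genes of these 2 lists passed, and the medians of the other mitosis genes were -0.10, -0.72 and -0.42. Of 30 regulators of the RB-E2F and DREAM system, which hold cell cycle genes off in resting cells, Cdkn1a was higher in kidney and lung, and Cdk6, a G1 kinase, was lower in lung (log2 fold change -1.22, adjusted p = 0.048).

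Levels of the genes also differed between organs. In the cisplatin libraries, all 42 members were higher in spleen than in the mean of the other 3 organs, where 31.3% of the 17896 genes tested were. The median difference was 3.33 on the log2 scale, and among the 41 members with reads in the cisplatin libraries of every organ it ran from 0.87 ± 0.312 SE, adjusted p = 0.0425 for Tyms, which makes thymidylate, to 5.04 ± 0.221 SE, adjusted p = 2.43e-06 for Top2a. Cdc25c, the phosphatase that activates Cdk1, passed too, but had 0 reads in both liver libraries, so that its fitted difference depends on how a 0 is handled and is not given. Pcna was higher by 0.92 ± 0.142 SE, adjusted p = 0.000903. No member was lower in spleen, where 25.4% of all genes were. In liver 35 members were lower than in the other organs and 2 higher, against 31.1% and 23.9% of all genes, and in kidney 32 were lower and 1 higher, against 19.8% and 25.8%. In lung 3 were lower and 2 higher, against 19.8% and 26.5%.

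The same genes were then followed in repair. XR-seq reads were counted on the transcribed strand (TS), the template that RNA polymerase reads, and on the non-transcribed strand (NTS), and a level here is the RPM (reads scaled to the reads on genes of the library) per 1000 GG dinucleotides of that strand. Transcription-coupled repair acts on the TS of active genes, where a stalled polymerase recruits the repair factors. Before the results, 3 libraries stood apart: replicate 1 of kidney had 8063 genes at 0 TS reads and 362 with 1 to 9 reads, against 3832 and 2737 in replicate 2. Replicate 1 of lung had 6024 and 632, and replicate 1 of spleen 7221 and 1845. In these 3 libraries 17, 3 and 9 members had no NTS read, against 0 members in the other 5. Counts, and the values of genes that had 0 reads in 1 of them, are given with and without them. Without them kidney, lung and spleen keep 1 library each, which is taken to vary like the 2 liver libraries. The spread in such a fit comes from the liver pair alone, so no p-value is printed from it. A pass or a count there does not measure the spread within kidney, lung or spleen.

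On the TS, 13 of the 26 mitosis members had a higher level of repair reads in spleen than in the other organs. Of the rest, 5 lay below 0 without passing (Ccna2, Ube2c, Birc5, Kif11 and Ccnb2). A level is relative to the reads of its library, so amounts of repair cannot be compared between organs. In spleen 16 of 42 members had a higher TS level than the mean of the other organs and 1 had a lower, where 14.1% of the 19731 genes tested were higher and 13.9% lower. The median difference of the members was 0.66 on the log2 scale, against 0.02 over all genes. Without the 3 libraries 22 were higher and 1 lower (15.2% and 15.3% of all genes). With replicate 1 or 2 of spleen left out, fewer members were higher, and the share of all genes was not counted in those fits. Cenpf had TS levels of 3.47 and 4.17 in spleen, and of 0 and 0.519 in kidney, 0.341 and 0.392 in liver and 0.51 and 0.54 in lung (log2 difference 3.32 ± 0.75 SE, adjusted p = 0.0048). For Top2a they were 3.34 and 6.17 in spleen, 0 and 0.501 in kidney, 0.583 and 1.1 in liver and 1.16 and 1.66 in lung (2.78 ± 0.72 SE, adjusted p = 0.0111). The log2 difference without the 3 libraries was 3.13 for Cenpf and 2.78 for Top2a. Both spleen libraries of these 2 genes lay above all 6 libraries of the other organs.

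For Mki67 the TS levels were 6.09 and 7.25 in spleen, 1.15 and 1.28 in kidney, 3.2 and 1.13 in liver and 0.598 and 0.908 in lung (2.37 ± 0.454 SE, adjusted p = 0.00153). Bub1b, which encodes the checkpoint protein BubR1, had 12.5 and 13.6 in spleen, against 2.3 and 2.87, 2.9 and 3.46 and 6.71 and 5.72 in kidney, liver and lung (1.78 ± 0.199 SE, adjusted p = 2.05e-05). Ccne1 had 22.5 and 29.5 in spleen, against 6.24 and 5.41, 9.03 and 11.5 and 4.7 and 5.36 (1.92 ± 0.279 SE, adjusted p = 0.000183). Of the 16 genes, 13 were mitotic. Besides these, Bub1, Aurkb, Cenpe, Kif23, Cdc25c, Cenpa, Prc1, Tpx2, Mcm3, Mcm5 and Foxm1 were higher, by between 0.75 and 3.22, of which Foxm1 did not pass without the 3 libraries. Ccne2, 41.9% of which lies under the gene Ints8 on the opposite strand, was lower in spleen (-1.67 ± 0.436 SE, adjusted p = 0.0117). On the TS of the other organs, 13 members were higher and 4 lower in liver (28.2% and 22.6% of all genes), 1 higher and 12 lower in kidney (15.5% and 17%), and 1 higher and 11 lower in lung (15.3% and 16.1%). These were 17 and 12 in liver without the 3 libraries (32.3% and 27.4%), 1 and 15 in kidney (15.6% and 18.1%) and 2 and 10 in lung (12.6% and 16.5%).

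On the NTS, 2 members were higher in spleen, where 6.77% of the 19408 genes tested were. Ccne1 had NTS levels of 21.2 and 15.7 in spleen and of 3.91 and 1.58, 0.869 and 1.52 and 0.438 and 1.04 in kidney, liver and lung (4.02 ± 0.417 SE, adjusted p = 0.00028). Mki67 had 6.24 and 4.76 in spleen and 0 and 0.709, 1.19 and 1.48 and 2.71 and 2.36 in the others (2.54 ± 0.619 SE, adjusted p = 0.0254). In both genes the spleen libraries were the highest of the 8, and without the 3 libraries the log2 difference of Mki67 was 2.13. No member was lower in spleen on the NTS (5.29% of all genes). In kidney 0 were higher and 5 lower on the NTS (5.62% and 7.27%), in liver 1 and 2 (11.1% and 6.48%), and in lung 1 and 0 (7.13% and 3.55%). Without the 3 libraries 7 members were higher and 3 lower in spleen (15.2% and 15% of all genes), 2 and 5 in kidney (14.4% and 14.6%), 5 and 6 in liver (23.9% and 19%) and 3 and 1 in lung (13.4% and 10.6%). Across the 42 genes, the RNA level and the TS level of repair ranked alike in the mean of each organ's cisplatin libraries, with Spearman's rho of 0.84 (kidney), 0.805 (liver), 0.713 (lung) and 0.439 (spleen), a description over genes that share library and gene length. With replicate 2 of XR-seq alone it was 0.848 in kidney, 0.728 in lung and 0.459 in spleen.

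**Figure D4:**
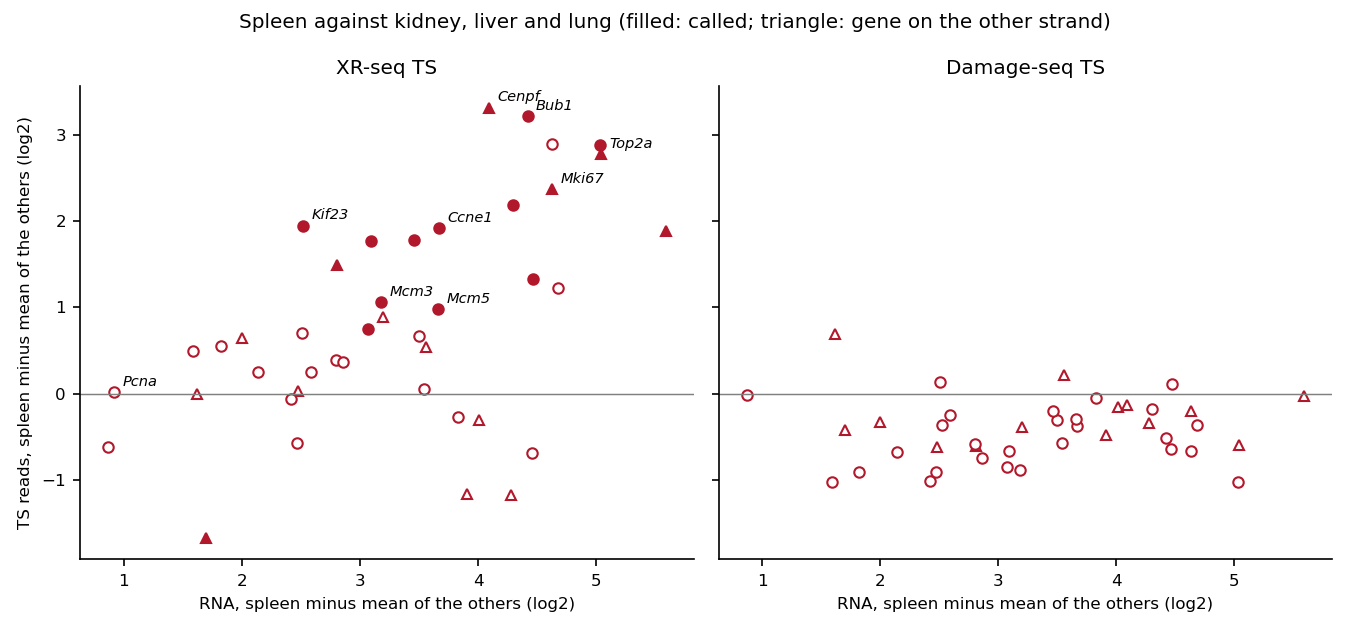
Log2 difference of spleen from the mean of kidney, liver and lung in TS reads of XR-seq and of Damage-seq (vertical axes) against the same difference in RNA (horizontal axis), 1 point per member, filled where the TS difference passed the test and triangular where a gene is annotated on the opposite strand. The members lie to the right in RNA and mostly above 0 in XR-seq, while in Damage-seq no point is filled.

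Within each organ the TS was repaired more than the NTS in many of the 42 genes. The TS exceeded the NTS per GG in 16 (kidney), 20 (liver), 24 (lung) and 24 (spleen) members, where 52.5%, 47.4%, 55% and 53.8% of the 21610 genes tested did so. In this fit with all libraries, counts of the members were therefore close to or below those of all genes. The reverse held for 5, 6, 5 and 3 members, against 5.98%, 6.93%, 7.13% and 6.79% of all genes. The members' median TS to NTS ratio came to 4.39 (kidney), 5.77 (liver), 6.33 (lung) and 9.24 (spleen), against 5.51, 3.57, 7.06 and 7 over all genes. Without the 3 libraries that stood apart, 26 members passed in kidney, 29 in lung and 33 in spleen, and 27 in liver, whose libraries were both kept, where 60.3%, 62.1%, 62.9% and 60.8% of all genes did, and the reverse held for 5, 6, 5 and 7 (8.38%, 9.23%, 9.74% and 11.3%). The members' median ratio was then 3.5 in kidney, 8.5 in lung, 10.6 in spleen and 5.63 in liver, against 4.74, 6.64, 6.74 and 3.58 over all genes. With 1 library of an organ left out, fewer members passed in liver, lung and spleen and more in kidney. The share of all genes was not counted in those fits, so a change particular to the members cannot be told.

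The largest log2 ratio of TS to NTS among the members belonged to an MCM gene in each organ, but to Rrm1 in lung and Tyms in spleen without the 3 libraries. Mcm3 had TS levels of 57.2 and 51.8 and NTS levels of 0 and 0.379 in spleen (log2 ratio 8.04 ± 1.24 SE, adjusted p = 0.000303), and 8.22 and 12.8 against 0 and 0.659 in kidney (5.44 ± 1.13 SE, adjusted p = 0.00222). Its NTS reads were 0 in replicate 1 of both organs, and without the 3 libraries the log2 ratio was 7.08 in spleen and 4.27 in kidney. Mcm2, Mcm4, Mcm5, Mcm6, Rrm1, the large subunit of ribonucleotide reductase, and Tyms passed in all 4 organs too, as did Cdc6, Cdt1 and E2f1. Among mitotic genes, Ccnb2, Foxm1 and the checkpoint gene Mad2l1 passed in all 4, and these 13 genes did so without the 3 libraries as well. Bub1 and Top2a passed in spleen and did not pass in the other organs. Top2a had NTS levels of 0.239 and 0.46 in spleen (log2 ratio 3.76 ± 1.25 SE, adjusted p = 0.0281), and its ratio in lung was 2.14 ± 1.2 SE, adjusted p = 0.158. A difference between organs in the ratio of either gene did not pass its own test. Without the 3 libraries the log2 ratio of Top2a was 3.19 in lung, and its log2 ratio in spleen against the other organs was 2.57. Over the members, the ratio of spleen against the other organs passed in 1 (Prc1), where 4.9% of all genes were higher, and without the 3 libraries in 13, of which 11 were higher and 2 lower (15.1% and 6.22% of all genes) and Prc1 was not one.

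Every member that passed with more repair on the NTS has a second gene annotated on its other strand. Of the 42 members 14 have such a gene. Ccna2, which overlaps Exosc9 over 11.8% of its length, and Kif20a, a kinesin of cytokinesis that overlaps Cdc23 over 26.9%, passed in that direction in all 4 organs. Prc1, overlapped over 100% of its length by Rccd1 and 6330403N20Rik, passed in kidney, liver and lung, and Gins2, a subunit of the GINS complex that Gse1 and Gm20388 overlap over 100%, passed in kidney and liver. Ccne2 passed in liver, lung and spleen. Nusap1, a spindle microtubule protein, overlaps Oip5 over only 0.522% of its length and passed in kidney, liver and lung. Every such member again had a gene on its other strand when the 3 libraries were left out. The TS of a member is the NTS of its opposite neighbour, so reads in the shared span cannot be told apart by gene. The summed TS reads over the summed NTS reads of all 42 members, per GG, gave 3.16 and 2.71 for the kidney libraries, 3.1 and 3.15 for liver, 3.41 and 4.28 for lung and 4.66 and 4.25 for spleen. Over the 28 members without such a neighbour the same ratio was 11.3 and 8.9 for kidney, 11.4 and 11.2 for liver, 14.6 and 18.3 for lung and 13.7 and 14.2 for spleen.

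**Figure D5:**
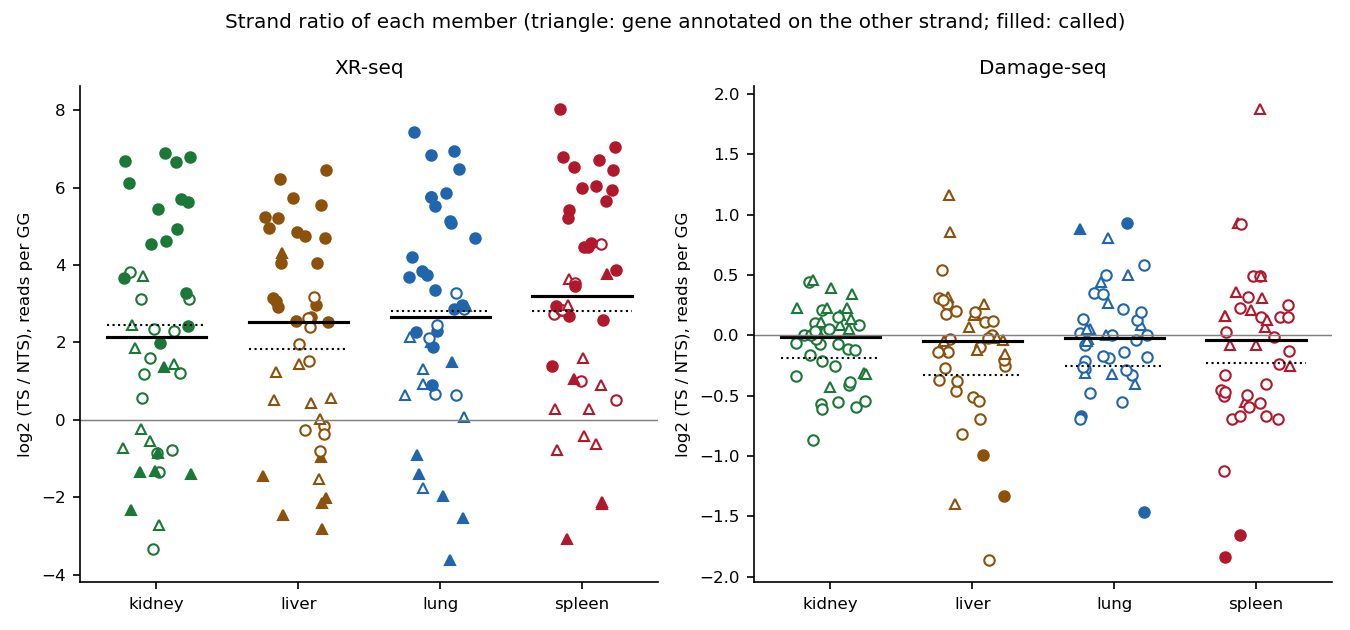
Strand ratio (TS over NTS, log2, reads per GG) of each member in the 4 organs, for XR-seq and for Damage-seq, with triangles for genes that have another gene annotated on the opposite strand and filled points for those that passed the test. In XR-seq most points lie above 0 and the filled points below 0 are all triangles, while the Damage-seq points lie near 0.

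In Damage-seq, 4 of 41 members lay above 0 on the TS in spleen against the mean of the other organs, with a median difference of -0.39, against 0.02 over all genes. On the NTS 10 of 41 did, with a median of -0.22, against 0.01. Pcna had too few reads to be tested. By edgeR 0 members passed on either strand (7 on the TS and 4 on the NTS at an unadjusted p under 0.05), where 0.886% of all genes were higher and 0.562% lower on the TS, and 0.0444% and 0.00494% on the NTS. With so few genes passing, a count of 0 says little about the members. In kidney 7 members were higher and 1 lower on the TS, against 16.8% and 12.9% of all genes, and 8 were higher and 1 lower on the NTS, against 15.5% and 11.4%.

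Between strands, the median ratio of damage over all members was near 1. The TS was lower than the NTS per GG in 0 members in kidney (3 at an unadjusted p under 0.05) and in 2 members each in liver, lung and spleen, where 18.7%, 29.5%, 24.5% and 11.8% of the 22939 genes tested were lower. The median ratio of the members was 0.992, 0.967, 0.989 and 0.97, against 0.874, 0.795, 0.843 and 0.855 over all genes. Summed TS over summed NTS reads, per GG, differed with the 14 members that have a gene on the other strand. Over all 42 members it was 0.934 and 0.986 (kidney), 0.999 and 0.93 (liver), 1.02 and 1.02 (lung) and 0.895 and 0.941 (spleen). Over the 28 without such a gene it was 0.874 and 0.955, 0.91 and 0.962, 1.05 and 0.97, and 0.806 and 0.839. The part of those genes was not tested. Cenpa was lower on the TS in 3 organs. Its TS levels were 6.21 and 2.94 and its NTS levels 14.8 and 8.72 in liver (-1.33 ± 0.485 SE, adjusted p = 0.023), 5.38 and 3.85 against 15.6 and 10.2 in lung (-1.46 ± 0.4 SE, adjusted p = 0.00204), and 2.28 and 4.86 against 12.2 and 14.4 in spleen (-1.84 ± 0.606 SE, adjusted p = 0.0272). In kidney the levels were 9.74 and 9.07 against 14.5 and 13.4, which did not pass. With either spleen library left out, 0 members passed in spleen.

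Rrm1 was lower on the TS in liver, with 5.34 and 6.55 against 13.4 and 9.46 (-0.99 ± 0.312 SE, adjusted p = 0.00667), and in spleen, with 2.54 and 4.7 against 10.5 and 12.8 (-1.65 ± 0.406 SE, adjusted p = 0.00159). In lung Mcm5 was lower on the TS (-0.67 ± 0.267 SE, adjusted p = 0.0498). Ccnb2 (0.93 ± 0.362 SE, adjusted p = 0.043) and Cdc25c (0.88 ± 0.289 SE, adjusted p = 0.0121) were higher on the TS in lung, where 1.45% of all genes were. In XR-seq, the TS of Rrm1 and of Cenpa exceeded the NTS in both liver and spleen. Across the 42 genes, RNA level and the TS to NTS ratio of damage had Spearman's rho of -0.357, -0.518, -0.484 and -0.207 in kidney, liver, lung and spleen, again a description over genes.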

How the data were processed

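RNA-seq, XR-seq and Damage-seq libraries of 4 mouse organs were used as raw counts of reads per gene, which the authors deposited. For RNA-seq the authors aligned poly-A selected reads with STAR and counted them with featureCounts. For XR-seq and Damage-seq they used cutadapt for trimming, BWA for alignment to mm10 and Picard for deduplication, retained only reads whose adduct position held GG, and assigned each to a strand. The strand setting of the RNA-seq counting was not given in the sources used here, so RNA reads of opposite genes could not be told apart, and RNA of Ccnb1, Ccnb2, Pcna and Tyms may be shared with pseudogene copies. A line without a gene, 1 in each XR-seq and Damage-seq file, was dropped.

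The members and lists were chosen with earlier results of these data known. RNA changes were tested per organ with edgeR 4.0.16 in R 4.3.3 (TMM scaling, filterByExpr, glmTreat against a log2 fold change of 0.4, adjusted p under 0.05). Lung and spleen controls, whose pairs had a chi-square index under 3, were each summed as 1 sample. Organ differences used edgeR's quasi-likelihood test (glmQLFTest). Strands were compared in a fit with each library as a block and an offset for reads and GG, over genes with at least 10 GG per strand and 20 reads. RPKM used exon lengths of GENCODE on mm10 and reads on genes. DESeq2 1.42.0 and the other settings gave alternatives, and the fits were tested on simulated data. Values in every library were given for Mki67, Top2a, Ccnb1, Cdk1, Cdc20, Aurka, Ccne1, Ccne2, E2f1, Cdc6, Mcm2, Mcm5, Pcna and Rrm2, for members that passed in kidney or liver, and for the 5 largest changes among those that passed in lung or spleen. Of the other pathway lists, the 2 called genes with the largest change per direction, organ and list were named, and Cdkn1a, Mdm2 and Ccng1 served as a check of treatment. Members named beyond this rule were chosen after their values were seen.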

Additional observations from a re-analysis of the deposited data

Results flagged for a closer look

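The ratio of TS to NTS differed between organs, by a test of the difference itself, in 6 cases. In XR-seq, the log2 ratio of Prc1 in liver stood at -1.58 relative to the mean of the other organs (adjusted p = 0.026) and in spleen at 1.61 (adjusted p = 0.0472). That of Gins2 stood at -1.55 in liver (adjusted p = 0.0133) and at 1.24 in lung (adjusted p = 0.046), and that of Kif20a at -1.98 in lung (adjusted p = 0.0198). All of these 3 genes share their span with a gene on the opposite strand, over 100% of Prc1 and Gins2 and 26.9% of Kif20a, and the part of those genes in the ratios was not tested. Without the 3 XR-seq libraries with many genes at 0, Prc1 stood at -1.37 in liver and 0.89 in spleen, where it no longer passed. Gins2 then stood at -1.31 in liver and 1.39 in lung, and Kif20a at -1.72 in lung. Among all genes, 12.6% were lower in liver, 8.67% higher and 1.56% lower in lung, and 4.9% higher in spleen. In Damage-seq, the log2 ratio of Rrm1 in kidney stood at 1.15 relative to the other organs (adjusted p = 0.0342), where 2.22% of all genes were higher.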

How the results depend on the processing

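Among the members whose single values were followed under the alternatives, none that passed changed direction. Not every member that passed was followed, and Birc5, Ccna2 and Ube2c in lung were among those left out. Of the results over members under alternatives, 150 were unchanged or within 1.5 times of the main count. Another 21 were lower, 30 were higher and 1 was marked as moved. Of the values of single members, 596 kept their side of the threshold, 17 no longer passed and 30 newly passed. Members lower in lung numbered 8 (1.96% of all genes), 13 with DESeq2 (2.06%) and 20 without the filter on low counts (4.19%). They numbered 15 against a log2 fold change of 0 (3.95%), 24 with each library counted as a replicate (7.88%) and 0 in the fit over all organs (0.366%). With 1 library left out, the median log2 fold change of the members in lung ran from -1.33 to -0.967. Leaving out a cisplatin library of lung or spleen used the fit over all organs and assumed that the lone library varied like the others. No count of members is read from such a fit. Members higher in kidney numbered 1 (2.4% of all genes), and 2 without the filter (3.88%). With 1 library left out, the median log2 fold change of the members in kidney ran from -0.166 to 0.0599. In liver 2 were lower in the fit over all organs, 0 to 5 were lower and 0 to 1 higher with 1 library left out, the 5 without cisplatin replicate 1, where 9% of all genes were lower.

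The replicate numbers of RNA-seq are shared numbers without a stated pairing. Over genes, the difference between replicates correlated between control and cisplatin with r of 0.626 (kidney), 0.506 (liver), 0.0851 (lung) and 0.245 (spleen). With the replicate block 2 of 40 members were higher in kidney (9.48% of all genes), 3 of 40 lower and 1 higher in liver (5.73% and 1.59%, 795 and 220 genes), 24 of 42 lower in lung (9%) and 1 of 42 lower in spleen (0.496%). In Damage-seq without the library block, 1 member was lower on the TS in lung in place of 2.

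With 1 library left out, members higher in spleen numbered 41 in RNA, 8 to 9 on the TS and 1 to 2 on the NTS of XR-seq. Members with TS above NTS numbered 17 to 20 (kidney), 6 to 7 (liver), 9 to 13 (lung) and 12 to 16 (spleen), and 0 to 3 passed for the strand ratio of spleen. An alternative chosen after seeing the data left out the 3 XR-seq libraries with many genes at 0. It gave 7 members higher in spleen on the NTS, 26 with TS above NTS in kidney, and 13 for the strand ratio of spleen. Some of these 13, such as Bub1, have no gene annotated on the opposite strand. With all libraries kept, members without an opposite gene gave 0 for the strand ratio of spleen. In Damage-seq, members lower on the TS numbered 0 to 1 (kidney), 0 to 1 (liver), 2 to 3 (lung) and 0 (spleen) with 1 library left out, 3 in kidney without the GG adjustment and 1 in lung without the minimum of GG or reads. The causes of these changes were not tested. For the counts in this paragraph with 1 library left out, no share of all genes is given. A change particular to the members can therefore not be told from a loss of calls over all genes. For the counts without the 3 XR-seq libraries, the shares of all genes are given with the same counts in the Results. The depth of Damage-seq limits what a single gene can show.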
